A study of Homo sapiens with 6 samples.

Results

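The aminoacyl-tRNA synthetases are the enzymes that join each amino acid to its tRNA, and 35 of their genes were followed here in IMR32 cells, a human neuroblastoma line in long use. The members were taken by name: 19 genes whose symbols mark the cytosolic enzyme, or an enzyme that serves the cytosol and the mitochondrion, and 16 whose symbols end in 2 and mark the mitochondrial enzyme. A gene entered through array probe sets annotated with its symbol alone. Of the 35 members, 32 had such a probe set, and all 32 were bright enough to be tested, 17 cytosolic or dual and 15 mitochondrial. They stood among 11998 genes tested in all. MARS1, QARS1 and TARS2 lacked a probe set of that kind, and their expression was not analysed here.

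The treated cells received 118 µM teriflunomide for 24 h, begun 12 h after seeding, and the control cells received 0.1% DMSO, the solvent. Teriflunomide blocks dihydroorotate dehydrogenase, a mitochondrial enzyme with which cells make pyrimidines anew. There were 3 arrays per group, labelled as biological replicates. All came from this single cell line at this single dose and time, and the sources used here leave unsaid whether DMSO was present in the teriflunomide wells too. They do not name separate cultures either, so p-values cover the spread among these arrays alone, and that spread may be technical.

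Each synthetase recognises its amino acid and the tRNAs that decode it, activates the amino acid with ATP and transfers it to the tRNA. Human cells keep separate enzyme sets for the cytosol, where nuclear messages are translated, and for mitochondria, where the few proteins of the mitochondrial genome are made. The genes of both sets are nuclear. GARS1, KARS1 and QARS1 serve both compartments or lack a mitochondrial counterpart of the same kind. In mammals, tRNA left uncharged for want of an amino acid is sensed by the kinase GCN2 (EIF2AK4), which phosphorylates eIF2; translation of the transcription factor ATF4 then rises, and several cytosolic synthetase genes are known ATF4 targets.

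A pair of short promoter elements is shown first, since the sequences of members that hold them are referred to beside the results. Not every member that holds them is printed. The C/EBP-ATF composite element, searched as TGATGNAA on both strands, is a class of site that ATF4 binds. Its windows are printed for cytosolic members that rose. The untested MARS1 and the mitochondrial YARS2, which did not pass, held it too and are not printed. The promoter windows below come from RefSeq on build GRCh38.p14, are printed in the direction of transcription, and carry the match in capitals. Positions count from the annotated start of the gene, with -1 the base just before it and 1 the first transcribed base.
AARS1, chr16:70289660-70289719, minus strand, match from -187 to -180: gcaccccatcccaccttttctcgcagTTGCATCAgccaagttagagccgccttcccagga
CARS1, chr11:3057394-3057451, minus strand, match from -2 to 6: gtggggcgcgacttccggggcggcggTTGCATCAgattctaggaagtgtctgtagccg
GARS1, chr7:30594819-30594878, plus strand, match from -33 to -26: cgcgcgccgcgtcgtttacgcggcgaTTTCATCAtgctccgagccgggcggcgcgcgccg
IARS1, chr9:92293677-92293736, minus strand, match from -13 to -6: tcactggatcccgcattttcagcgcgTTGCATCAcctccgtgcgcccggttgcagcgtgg
NARS1, chr18:57621807-57621848, minus strand, match from 15 to 22: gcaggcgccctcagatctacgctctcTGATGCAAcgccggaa
TARS1, chr5:33440941-33440994, plus strand, match from 3 to 10: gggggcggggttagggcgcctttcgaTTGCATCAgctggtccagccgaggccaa

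The E-box CACGTG, read alike on either strand, is a site for basic helix-loop-helix factors such as MYC and MYCN partners of MAX. It is shown for the 3 mitochondrial members that held it. IARS1, a cytosolic member that rose, held it too and is not printed for it.
CARS2, chr13:110706487-110706544, minus strand, match from -3 to 3: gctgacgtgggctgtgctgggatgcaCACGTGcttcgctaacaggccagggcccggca
EARS2, chr16:23557334-23557391, minus strand, match from -15 to -10: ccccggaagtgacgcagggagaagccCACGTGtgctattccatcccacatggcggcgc
MARS2, chr2:197705332-197705389, plus strand, match from -11 to -6: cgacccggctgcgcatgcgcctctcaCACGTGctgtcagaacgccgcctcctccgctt

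The deposited values are log2 intensities, on which a difference of 1 is a 2-fold change. The cytosolic and the mitochondrial synthetases moved apart under teriflunomide. Of the 17 cytosolic or dual members, 11 rose, 5 fell and 1 missed the threshold, and the median log2 fold change was 0.61 (range -0.67 to 2.09). Of the 15 mitochondrial members, 1 rose, 10 fell and 4 missed it, and their median was -0.37 (range -1.45 to 0.52). A change means a limma adjusted p under 0.05. The response of the cells was broad: 58.6% of all tested genes passed, 29.7% of genes being higher and 28.9% lower, with a median of 0.0015. The 12 members higher and 15 lower are to be read against those shares. The median over all 32 members, -0.059, lay near that of all genes.

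Large changes were fewer. A rise of 2-fold or more was seen in 3 cytosolic members and in 5.24% of all genes, and a fall of 2-fold or more in 3 mitochondrial members and 4.53% of all genes. The 3 cytosolic genes were AARS1, CARS1 and WARS1, and the 3 mitochondrial genes were CARS2, MARS2 and VARS2. For 16 of the 17 cytosolic and 12 of the 15 mitochondrial members, no teriflunomide array lay among the DMSO arrays, against 67% of all genes. In bulk RNA a change in the kinds of cell present and a change in RNA per cell cannot be told apart.

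**Figure D1:**
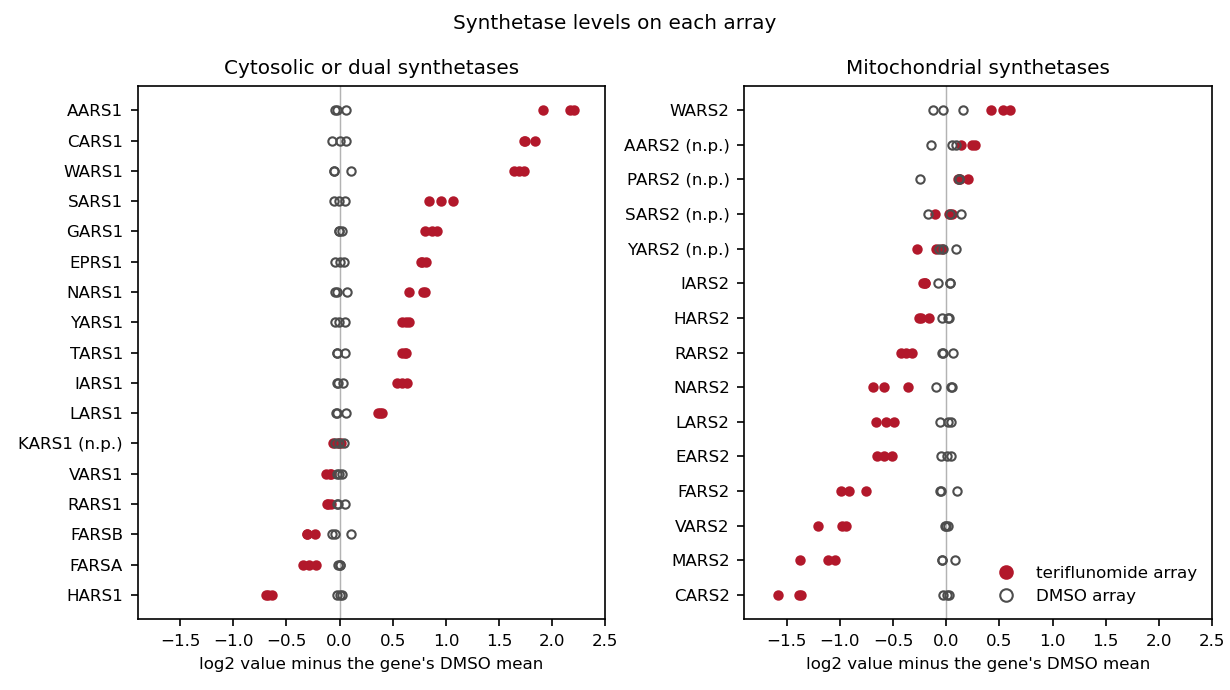
Each point is 1 array, placed by its log2 value minus the gene's mean over the 3 DMSO arrays, with the 3 teriflunomide arrays and the 3 DMSO arrays in separate colours and n.p. marking members that did not pass the test. Of the cytosolic or dual members 11 rose and 5 fell, and of the mitochondrial members 1 rose and 10 fell.

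Among the cytosolic enzymes, each read by its brightest probe set, AARS1, which charges tRNA with alanine, had the largest rise. With probe sets averaged per gene SARS1 stood higher, at log2 2.41. The log2 values of AARS1 were 12.29, 12.26 and 12.01 in teriflunomide cells, against 10.16, 10.07 and 10.05 in DMSO cells. Every teriflunomide array stood far above every DMSO array, and the difference was 4.27-fold (log2 2.09, SE 0.086, adjusted p = 4.52e-05). CARS1, the cysteine enzyme, had 12.92, 13.02 and 12.91 in teriflunomide cells, against 11.11, 11.24 and 11.18 in DMSO cells. The groups were again well apart, by 3.42-fold (log2 1.77, SE 0.050, adjusted p = 2.47e-05). WARS1, the cytosolic tryptophan enzyme, also known as an interferon-inducible gene, had 10.79, 10.83 and 10.74 in teriflunomide cells, against 9.05, 9.05 and 9.21 in DMSO cells. The 3 teriflunomide arrays lay close together and 3.22-fold above DMSO (log2 1.69, SE 0.056, adjusted p = 2.84e-05).

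A further 8 cytosolic members rose by less than 2-fold by their brightest probe set, of which SARS1 (log2 2.41) and EPRS1 (1.04) passed 2-fold with the mean of their probe sets. SARS1, which charges serine and also starts the selenocysteine route, had 12.80, 12.91 and 12.68 in teriflunomide cells, against 11.79, 11.84 and 11.90 in DMSO cells. All treated arrays lay above all control arrays, 1.94-fold apart (log2 0.95, SE 0.067, adjusted p = 0.000185). GARS1, the glycine enzyme of both compartments, had 14.48, 14.43 and 14.37 in teriflunomide cells, against 13.56, 13.56 and 13.59 in DMSO cells. Its control arrays were nearly level, and the rise was 1.82-fold (log2 0.86, SE 0.038, adjusted p = 5.13e-05). EPRS1, a fused enzyme that charges glutamate and proline, had 13.98, 14.02 and 13.97 in teriflunomide cells, against 13.16, 13.21 and 13.25 in DMSO cells. The rise was 1.72-fold with no overlap (log2 0.79, SE 0.036, adjusted p = 5.84e-05).

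NARS1, the asparagine enzyme, had 14.45, 14.47 and 14.32 in teriflunomide cells, against 13.62, 13.73 and 13.64 in DMSO cells. The groups did not overlap (log2 fold change 0.75, SE 0.056, adjusted p = 0.000228). The tyrosine enzyme YARS1 rose by log2 0.62 (SE 0.038), the threonine enzyme TARS1 by 0.61 (SE 0.035), the isoleucine enzyme IARS1 by 0.58 (SE 0.037) and the leucine enzyme LARS1 by 0.38 (SE 0.037). LARS1 doubles as a leucine sensor for mTORC1 signalling, and for these 4 genes too no teriflunomide array overlapped a DMSO array.

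The 5 cytosolic members that fell were led by HARS1, the histidine enzyme. HARS1 had 10.74, 10.79 and 10.75 in teriflunomide cells, against 11.45, 11.40 and 11.43 in DMSO cells. The arrays of each group lay close together, and the teriflunomide level was 0.630 of the DMSO level (log2 -0.67, SE 0.031, adjusted p = 5.82e-05). FARSA and FARSB encode the catalytic and the other subunit of the cytosolic phenylalanine enzyme, and both fell by 0.28 on the log2 scale. FARSA had 9.43, 9.38 and 9.50 in teriflunomide cells, against 9.72, 9.73 and 9.71 in DMSO cells (SE 0.039, adjusted p = 0.00192). FARSB had 11.44, 11.51 and 11.43 in teriflunomide cells, against 11.67, 11.85 and 11.70 in DMSO cells (SE 0.059, adjusted p = 0.00932). Neither subunit's groups overlapped. With the mean of its probe sets FARSB stood at -0.58 (adjusted p = 0.0199).

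VARS1, the valine enzyme, and RARS1, the arginine enzyme, were called lower by a narrow margin. VARS1 had 9.26, 9.30 and 9.30 in teriflunomide cells, against 9.38, 9.42 and 9.37 in DMSO cells (log2 -0.10, SE 0.030, adjusted p = 0.0346). RARS1 had 11.86, 11.90 and 11.87 in teriflunomide cells, against 11.96, 11.95 and 12.02 in DMSO cells (log2 -0.10, SE 0.034, adjusted p = 0.0498). Both calls were lost when any 1 of the 6 arrays was left out, with adjusted p of 0.0582 to 0.0850 for VARS1 and 0.0576 to 0.119 for RARS1 in limma, so that 3 cytosolic members were then called lower. KARS1, the lysine enzyme of both compartments, had 13.46, 13.49 and 13.41 in teriflunomide cells, against 13.46, 13.43 and 13.51 in DMSO cells. Its groups overlapped (log2 -0.018, SE 0.038, adjusted p = 0.709).

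Among the mitochondrial enzymes, CARS2, the cysteine enzyme, fell most. It had 7.84, 8.03 and 8.05 in teriflunomide cells, against 9.39, 9.44 and 9.42 in DMSO cells. The teriflunomide level was 0.367 of the DMSO level with the groups far apart (log2 -1.45, SE 0.065, adjusted p = 5.40e-05). MARS2, which charges methionine for both initiation and elongation in mitochondria, had 6.12, 6.39 and 6.45 in teriflunomide cells, against 7.46, 7.46 and 7.58 in DMSO cells. It stood at 0.442 of the DMSO level (log2 -1.18, SE 0.096, adjusted p = 0.000299), and its teriflunomide arrays spread more than its DMSO arrays. VARS2, the valine enzyme, had 8.73, 8.69 and 8.47 in teriflunomide cells, against 9.69, 9.67 and 9.67 in DMSO cells. It was at 0.485 of the DMSO level, again with wider spread among treated arrays (log2 -1.04, SE 0.075, adjusted p = 0.000196).

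The phenylalanine enzyme FARS2, a single-subunit protein unlike its cytosolic counterpart, had 8.41, 8.64 and 8.48 in teriflunomide cells, against 9.35, 9.50 and 9.34 in DMSO cells. All treated arrays were lower (log2 -0.89, SE 0.079, adjusted p = 0.000387). EARS2, which charges glutamate and also gives the first product on the way to mitochondrial glutaminyl-tRNA, had 9.54, 9.68 and 9.60 in teriflunomide cells, against 10.19, 10.14 and 10.23 in DMSO cells. LARS2, the leucine enzyme, had 9.63, 9.73 and 9.80 in teriflunomide cells, against 10.31, 10.34 and 10.23 in DMSO cells. EARS2 fell by 0.58 (SE 0.048, adjusted p = 0.000310) and LARS2 by 0.57 (SE 0.055, adjusted p = 0.000511) on the log2 scale, neither with overlap.

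NARS2 (asparagine) had 10.52, 10.75 and 10.42 in teriflunomide cells, against 11.01, 11.17 and 11.15 in DMSO cells, and its log2 fold change was -0.55 (SE 0.097, adjusted p = 0.00487). The remaining falls were smaller. RARS2 (arginine) fell by 0.37 (SE 0.045, adjusted p = 0.00116), HARS2 (histidine) by 0.22 (SE 0.040, adjusted p = 0.00550) and IARS2 (isoleucine) by 0.21 (SE 0.041, adjusted p = 0.00783) on the log2 scale.

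WARS2, the mitochondrial tryptophan enzyme, was the exception in its compartment. It had 8.56, 8.49 and 8.38 in teriflunomide cells, against 7.93, 7.84 and 8.12 in DMSO cells. The treated arrays all stood higher, by 1.43-fold (log2 0.52, SE 0.086, adjusted p = 0.00402), although another of its probe sets gave a log2 fold change of -0.11 that did not pass (adjusted p = 0.246 over probe sets). AARS2 (alanine) had 10.29, 10.16 and 10.26 in teriflunomide cells, against 10.08, 9.87 and 10.11 in DMSO cells. Its groups did not overlap, but the difference missed the threshold (log2 0.22, SE 0.077, adjusted p = 0.0566), which it passed under several alternatives, for example with probe sets averaged (0.24). PARS2 (proline; log2 0.15, SE 0.11, adjusted p = 0.305), YARS2 (tyrosine; -0.14, SE 0.078, adjusted p = 0.174) and SARS2 (serine; -0.0098, SE 0.091, adjusted p = 0.943) did not pass and had overlapping arrays. YARS2 was called lower with arrays centred on poly-A spikes (-0.22).

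For each amino acid with a measured gene in both compartments, the change of the cytosolic gene was set against that of its mitochondrial counterpart. Of 17 such pairs, 15 were measured, with EPRS1 and FARS2 each standing in 2 of them. Per array, the mitochondrial log2 value was subtracted from the cytosolic one, and the groups' differences were compared. In 14 of the 15 pairs the cytosolic gene was higher relative to its counterpart on all 3 teriflunomide arrays than on any DMSO array. The median shift was 0.94 on the log2 scale. Among all genes tested singly, 67% had groups without overlap, and the share among other pairs of genes was not computed. Each of the 15 pairs gave an exact permutation p of 0.1 (two-sided, 3 arrays against 3), the smallest this design allows, and a Benjamini-Hochberg value of 0.1 over the 15.

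The cysteine pair moved farthest, by log2 3.22 (SE 0.067): CARS1 rose by 1.77 while CARS2 fell by 1.45. The alanine pair moved by 1.88 (SE 0.13), nearly all of it from AARS1. The shift was 1.37 (SE 0.040) for EPRS1 and EARS2, 1.30 (SE 0.072) for asparagine and 1.17 (SE 0.053) for tryptophan, the pair in which both genes rose. For serine it was 0.96 (SE 0.14), for leucine 0.95 (SE 0.065) and for valine 0.94 (SE 0.093). The valine shift came from the fall of VARS2, since VARS1 had changed by only -0.10. In 5 pairs, those of cysteine, isoleucine, leucine, asparagine and of EPRS1 with EARS2, the cytosolic gene rose and the mitochondrial gene fell past the threshold. Among all genes tested singly 29.7% were higher and 28.9% lower. The share of opposite calls among other pairs of genes was not computed.

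The smaller shifts were 0.79 (SE 0.049) for isoleucine, 0.76 (SE 0.11) for tyrosine, 0.64 (SE 0.11) for EPRS1 and PARS2, 0.61 (SE 0.048) for FARSB and FARS2, 0.60 (SE 0.11) for FARSA and FARS2, and 0.27 (SE 0.021) for arginine. With the mean of probe sets FARSB and FARS2 were at 0.12 with overlapping arrays, which left 13 pairs without overlap; the serine shift was then 2.42 and the arginine shift 0.18. The tyrosine shift was 1.49 with plain probe set suffixes preferred. In the phenylalanine and arginine pairs both genes fell, the mitochondrial one by more. Histidine ran the other way, at -0.45 (SE 0.041): HARS1 fell by 0.67 and HARS2 by 0.22 on the log2 scale.

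**Figure D2:**
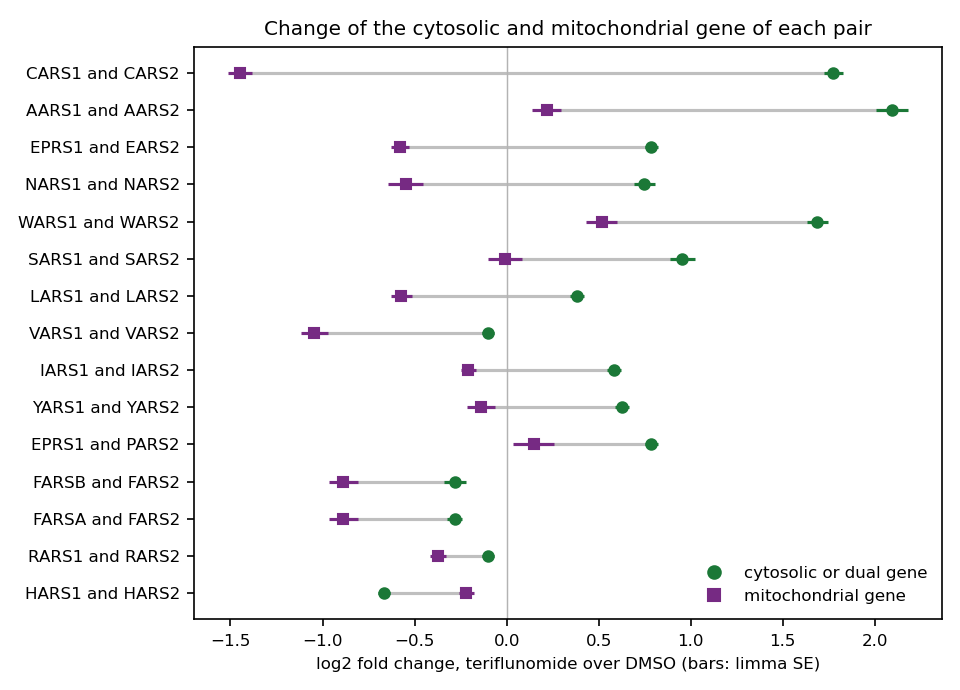
Each row is 1 cytosolic and mitochondrial pair, with the log2 fold change of teriflunomide over DMSO of the cytosolic gene and of the mitochondrial gene as separate points and bars for limma's standard error. The cysteine pair is widest apart, by 3.22, and histidine is the pair in which the cytosolic gene moved lower relative to the mitochondrial one, at -0.45.

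HARS1 and HARS2 are neighbours transcribed in opposite directions on chromosome 5. In the RefSeq promoter table their starts are separated by 84 bases, of which 59.5% are G or C. The stretch between the starts is printed because the only pair to run the other way shares it, and because both of its genes fell. Its plus strand, chr5:140691371-140691454 in GRCh38.p14, reads as follows.
HARS1 and HARS2: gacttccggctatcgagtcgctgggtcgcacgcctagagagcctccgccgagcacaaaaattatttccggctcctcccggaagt

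The promoter search covered 250 bases before and 50 bases after each annotated start. The table held 39 promoters of 30 members, 16 cytosolic or dual and 14 mitochondrial. AARS2, LARS1, VARS1, VARS2 and YARS1 were not in it. TGATGNAA was found in 7 of the 16 cytosolic members: AARS1, CARS1, GARS1, IARS1, NARS1, TARS1 and the untested MARS1. It was found in 1 of the 14 mitochondrial members, YARS2. The same letters occurred in 3.62% of all 35116 promoters and in 2.66% of the 9815 tested genes with a promoter. By direction, 6 of the 9 cytosolic members that rose and were in the table held it, against 3.61% of 2963 tested genes that rose, and 0 of the 13 members that fell. The 2 members with the largest rise held it, while WARS1, SARS1 and EPRS1 rose without these letters in the window.

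The matches did not sit at 1 place. That of AARS1 lay far from its start, those of CARS1, IARS1 and GARS1 at or just before it, and those of NARS1 and TARS1 in the first transcribed bases. With the search restricted to bases before the start, 3 cytosolic members and 1 mitochondrial member held the element. GARS1 and TARS1 each had 2 promoters in the table, of which 1 held it. In 28 of the 39 promoters the start was the outer end of the gene in the RefSeq gene table.

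CACGTG occurred in 3 of the 14 mitochondrial members, CARS2, EARS2 and MARS2, all of which fell, and in 1 of the 16 cytosolic members, IARS1, which rose. Its share was 7.26% of all promoters and 13.1% of the tested genes, near that of the members as a whole, and the split by compartment was not tested. MYCN, which IMR32 carries in amplified form and whose protein binds this site, was itself lower in teriflunomide cells (log2 -0.43, adjusted p = 0.000841). The part of MYCN in the synthetase changes was not tested. GCGCATGC, the core of the site of NRF1, a regulator of nuclear genes for mitochondria, occurred in MARS2 and YARS2 and in 0 cytosolic members, against 3.05% of all promoters and 6.58% of the tested genes, a share like that among the members. In MARS2 it lay upstream of the E-box. Matches are strings of letters, and no binding was measured.

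**Figure D3:**
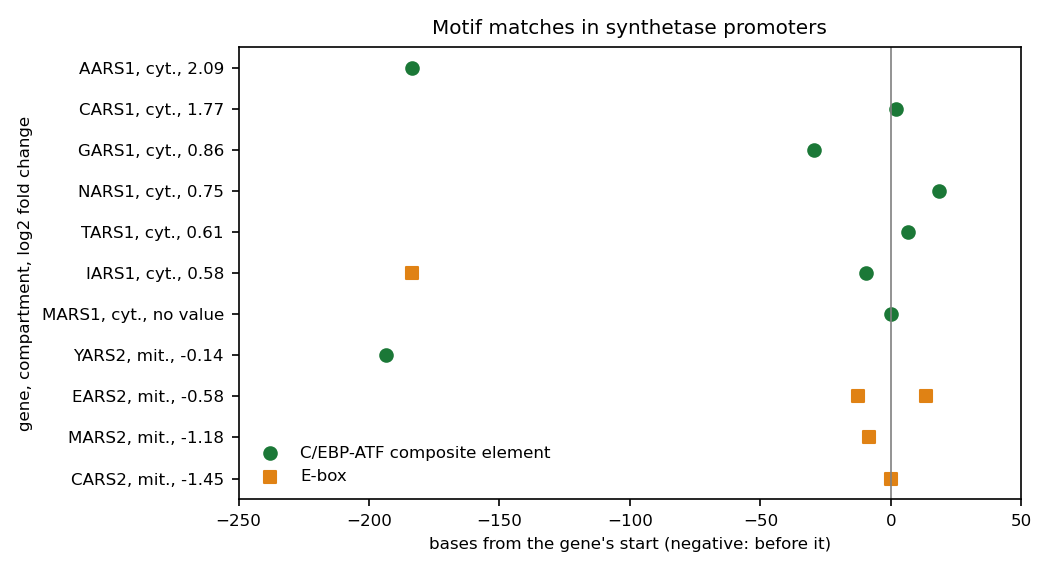
Matches to TGATGNAA (circles) and CACGTG (squares) are placed by their distance in bases from the annotated start, 1 row for each member that held a match, labelled with its compartment and log2 fold change. EARS2 has 2 annotated starts and its single match appears once for each. The composite element lies in 7 cytosolic members and 1 mitochondrial member, and the E-box in 3 mitochondrial members and 1 cytosolic member.

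Several cytosolic synthetases assemble with 3 scaffold proteins into the multisynthetase complex. The complex has 7 members in the set, of which 5 were tested. EPRS1, IARS1 and LARS1 rose, RARS1 was called lower by the narrow margin given above, and KARS1 missed the threshold. The median was 0.38, and among all genes 29.7% were higher and 28.9% lower. The 12 cytosolic members outside the complex were all tested, and 8 rose and 4 fell with a median of 0.69. The 3 genes that rose by over 2-fold by their brightest probe set were outside it, while EPRS1, inside it, stood at 1.04 with the mean of its probe sets. Of the scaffolds, AIMP1 was tested and did not pass (log2 0.12, SE 0.047, adjusted p = 0.0823), although the mean of its probe sets did (0.29, adjusted p = 0.00908). The other scaffolds lacked a probe set that names them alone.

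The enzymes fall into class I and class II by the fold of their catalytic domain. In each class the cytosolic median lay above the mitochondrial one. The counts that follow are small, and among all genes 29.7% were higher and 28.9% lower. Of the cytosolic class I members tested, 5 rose and 2 fell (median 0.58), and of class II 5 rose, 3 fell and 1 did not pass (median 0.61). Of the mitochondrial class I members, 1 rose, 7 fell and 1 did not pass (median -0.57). Of the mitochondrial class II members, 0 rose, 3 fell and 3 did not pass in limma (median -0.11), and the difference between the classes was not tested. The 3 mitochondrial genes that fell by over 2-fold were all of class I. EPRS1 holds a domain of each class and was left out of this count.

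Many members are read by more than 1 probe set, which gives further readings of the same RNA. The 32 genes had 67 probe sets, of which 56 passed the filter. Of the 31 cytosolic probe sets tested, 20 were higher, 5 lower and 6 did not pass, and of the 25 mitochondrial ones 2 were higher, 15 lower and 8 did not pass. The background was 48.8% of all probe sets called in either direction. Among 17 genes with 2 or more tested probe sets, 0 had calls in opposite directions, and VARS1 and WARS2 had estimates of both signs.

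The probe sets of a gene could differ widely in size. SARS1 had another probe set, 231894_at, with 12.44, 12.50 and 12.55 in teriflunomide cells, against 8.65, 8.77 and 8.47 in DMSO cells. Its log2 fold change was 3.87 (SE 0.084, adjusted p = 3.03e-05 over probe sets), against 0.95 for the brighter probe set that stood for the gene. Which transcripts each of the 2 detects was not given in the sources used here. The mean of the SARS1 probe sets gave 2.41. YARS1 gave 0.62 and 1.35 with its 2 probe sets, EPRS1 gave 0.79, 0.95 and 1.39 with 3, and CARS1 gave 1.77, 2.19 and 2.21 with 3. The falls of EARS2 were 0.58, 0.86 and 1.12 on the log2 scale, all past the threshold. For CARS2 another, very dim probe set, with a mean of 3.13 near the lowest value of the arrays, gave -0.21 and did not pass (adjusted p = 0.267), and the mean of its probe sets was -0.83. The mean of the WARS2 probe sets was 0.20 (adjusted p = 0.0248).

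**Figure D4:**
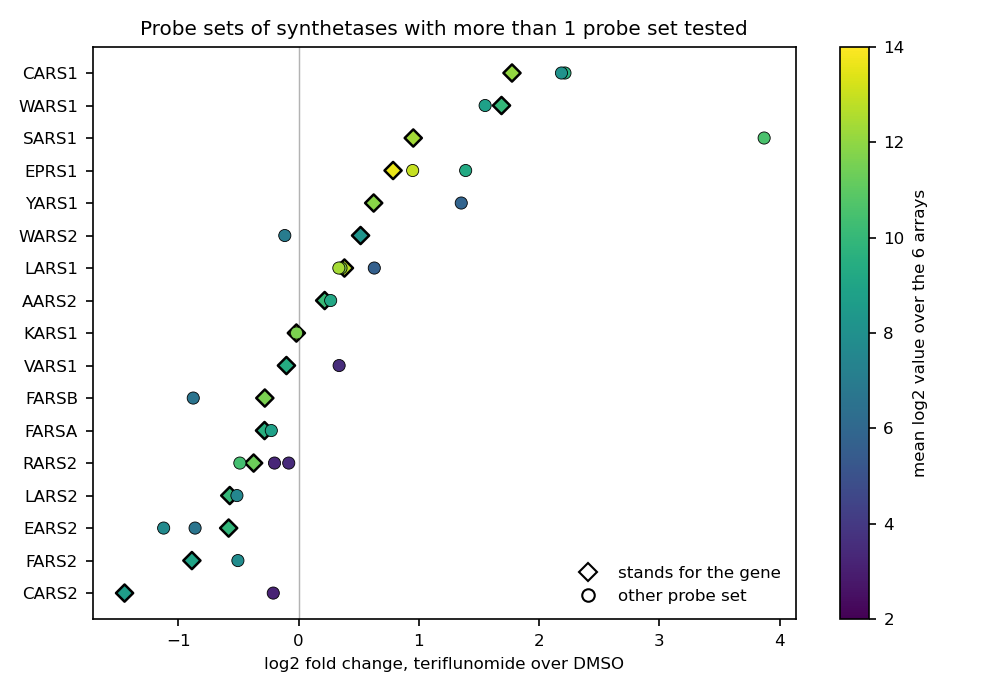
Each point is 1 tested probe set of a synthetase with 2 or more tested, placed by its log2 fold change of teriflunomide over DMSO and coloured by its mean log2 value over the 6 arrays. SARS1 spreads from 0.95 to 3.87, and the estimates of VARS1 and WARS2 fall on both sides of 0.

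Other genes of tRNA charging and delivery were read from 8 lists of 52 genes, of which 42 were tested: 17 rose, 13 fell and 12 missed the threshold, and their median was 0.056. Over all genes 29.7% were higher and 28.9% lower, and the counts of each list below are to be read against those shares. The largest rises among them were in the list of uncharged tRNA sensing and ATF4, in TRIB3, DDIT3, CEBPB, CEBPG and ATF4. The sensing genes EIF2AK4, GCN1 and IMPACT changed by less, as given below. Of the 11 genes of this list 8 rose, 1 fell and 2 missed the threshold, and their median was 0.86. ATF4 had 14.22, 14.24 and 14.15 in teriflunomide cells, against 13.07, 13.06 and 13.17 in DMSO cells (log2 1.10, SE 0.047, adjusted p = 4.91e-05). The ATF4 targets DDIT3, which encodes CHOP, and TRIB3, a pseudokinase that restrains ATF4, had log2 fold changes of 4.89 (SE 0.11) and 5.16 (SE 0.12). CEBPB rose by 1.90 (SE 0.057) and CEBPG, an ATF4 partner, by 1.35 (SE 0.063). EIF2S2, the beta subunit of eIF2, rose by 0.86 (SE 0.030) while EIF2S1, the alpha subunit that GCN2 phosphorylates, fell by 0.35 (SE 0.037). EIF2S3, the gamma subunit, was called higher at 0.14 (SE 0.028, adjusted p = 0.00664), but stood at 0.062 and did not pass with arrays centred on poly-A spikes. EIF2AK4 itself was 0.18 (SE 0.053, adjusted p = 0.0339), a call lost when any array other than DMSO replicate 2 was left out. GCN1 (-0.22, adjusted p = 0.0582) and IMPACT (-0.39, adjusted p = 0.0685) did not pass. GCN1 was called lower under several alternatives, among them the array weights (-0.26, adjusted p = 0.0254), and without teriflunomide replicate 3 or DMSO replicate 2. IMPACT was called lower without DMSO replicate 1 (-0.54, adjusted p = 0.00696) and with poly-A spikes, the replicate block or trended and robust eBayes.

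Of 5 partners of mitochondrial charging, 1 rose, 3 fell and 1 did not pass. TRMU, which thiolates the wobble base of mitochondrial tRNAs, had 7.58, 7.54 and 7.41 in teriflunomide cells, against 8.52, 8.50 and 8.57 in DMSO cells (log2 -1.02, SE 0.053, adjusted p = 7.99e-05). The glutaminyl-tRNA amidotransferase, which completes the product begun by EARS2, has 3 subunits. GATB fell by 0.48 (SE 0.065) and GATC by 0.16 (SE 0.047) on the log2 scale, and QRSL1 was called higher at 0.41 (SE 0.036). The GATC call was lost without teriflunomide replicate 1 or 2 or without DMSO replicate 2 or 3, and the direction of QRSL1 turned to -0.014 when another probe set was taken. MTFMT, which formylates the initiator methionyl-tRNA made by MARS2, was at -0.050 (adjusted p = 0.524).

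Of 8 tested mitochondrial elongation and initiation factors, MTIF2 rose by 0.39 (SE 0.076). TSFM, the exchange factor of TUFM, fell by 0.77 (SE 0.063), MRRF, the ribosome recycling factor, by 0.69 (SE 0.066) and GFM1, a translocase, by 0.23 (SE 0.047). The other tested probe sets of GFM1 fell by more, from 0.51 to 1.11 on the log2 scale, all past the threshold. The largest of these falls was that of a dim probe set. TUFM, which brings charged tRNA to the mitochondrial ribosome, was at 0.061 and did not pass (adjusted p = 0.210), and MTIF3, MTRF1 and MTRF1L did not pass either. With the mean of their probe sets TUFM turned to -0.23 (adjusted p = 0.0425) and MTRF1 stood at -0.29 (adjusted p = 0.00656). Of 6 tested cytosolic elongation factors, EEF1A2 (0.40, SE 0.080) and EEF2 (0.24, SE 0.048) rose and EIF5A fell by 0.61 (SE 0.026). EEF2 stood at 0.16 and did not pass with arrays centred on poly-A spikes (adjusted p = 0.176). EEF1A1, the main carrier of charged tRNA, was at 0.038 (adjusted p = 0.296), and EEF1D and EEF2K did not pass. EEF2K (-0.16) was called lower with poly-A centring (-0.24, adjusted p = 0.0326), with the replicate block and without teriflunomide replicate 2, but higher with the mean of its probe sets (0.28, adjusted p = 0.00765).

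The selenocysteine route starts with serine placed on its tRNA by SARS1. SEPHS2, which makes selenophosphate, rose by 0.80 (SE 0.050), SEPSECS, which converts the tRNA-bound intermediate, by 0.79 (SE 0.092), SECISBP2, which reads the selenocysteine signal in messages, by 0.50 (SE 0.039) and SEPHS1 by 0.19 (SE 0.046). PSTK, the kinase of the intermediate step, fell by 0.40 (SE 0.055) and EEFSEC, the elongation factor, by 0.16 (SE 0.047). The call of SEPHS1 was lost without DMSO replicate 3, and that of EEFSEC without any 1 teriflunomide array or without DMSO replicate 2. With the mean of their probe sets, SEPSECS stood at 0.026 and SEPHS1 at 0.041 and neither passed. Both genes had probe sets called in opposite directions in limma over probe sets. A dim probe set of SEPSECS was lower at -0.32 (adjusted p = 0.0196), and its remaining tested probe sets did not pass. For SEPHS1 another probe set was lower at -0.20 (adjusted p = 0.0150), and a further one was higher at 0.13 (adjusted p = 0.0305).

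In the list of charging quality, 4 of 7 genes were tested. ANKRD16, which works with AARS1 in mice to hold back mischarged serine, had 7.44, 7.48 and 7.44 in teriflunomide cells, against 8.88, 8.74 and 8.85 in DMSO cells. It thus fell by 1.37 (SE 0.046, adjusted p = 2.87e-05) where AARS1 rose by 2.09. DTD2, a deacylase, fell by 0.38 (SE 0.067), XPOT, the tRNA exporter of the nucleus, rose by 0.52 (SE 0.051), and DTD1 did not pass (0.17, adjusted p = 0.0640), but did without teriflunomide replicate 1 (0.21, adjusted p = 0.0313). XPOT was at 0.16 and did not pass as the mean of its probe sets. Of 3 other synthetase genes 1 was tested. This gene, TARS3, which encodes a threonine enzyme close in sequence to TARS1, fell by 0.76 (SE 0.056, adjusted p = 0.000224), against a rise of 0.61 in TARS1.

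**Figure D5:**
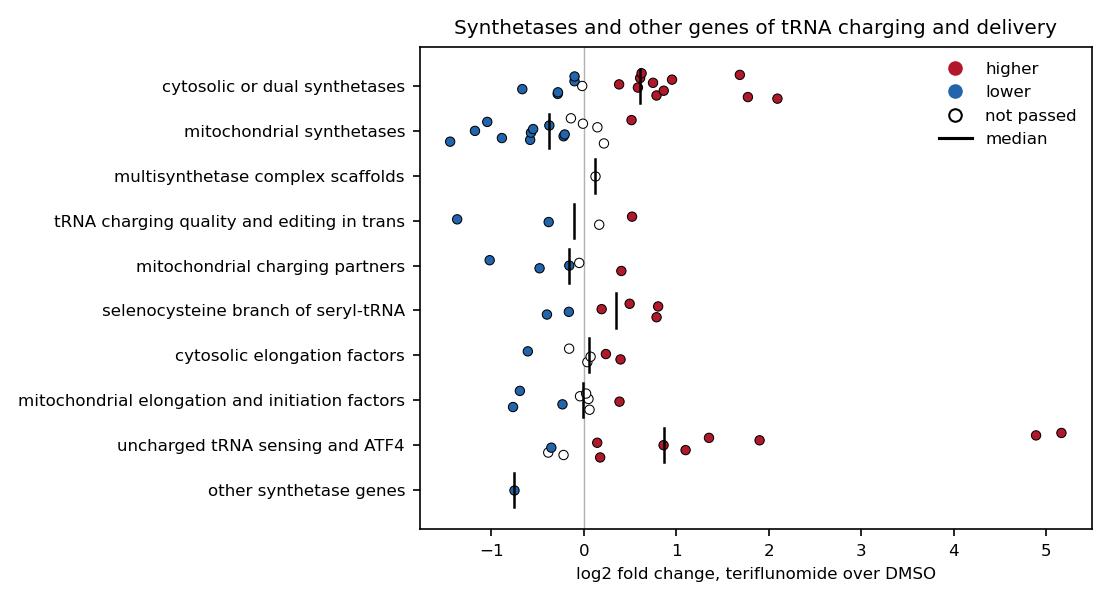
Each row is a group of genes and each point 1 tested gene at its log2 fold change of teriflunomide over DMSO, with a bar at the group's median. The medians are 0.61 for cytosolic or dual synthetases, -0.37 for mitochondrial synthetases and 0.86 for the list of uncharged tRNA sensing and ATF4. In that list the sensing genes EIF2AK4, GCN1 and IMPACT stood at 0.18, -0.22 and -0.39.

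Pearson's r over all probe sets, which are not independent, was 0.998 to 0.999 within groups and 0.989 to 0.990 between them. The lowest value was 2.18 on every array, and 33.8% to 34.2% of probe sets sat at it. The 3′ minus 5′ log2 difference of ACTB, a measure of RNA integrity and labelling, was 1.62 ± 0.070 in teriflunomide cells and 1.36 ± 0.032 in DMSO cells (SD, n = 3 each; exact permutation p = 0.1, the smallest possible), while that of GAPDH was 0.063 and 0.049 (exact p = 0.4). Of 10 adrenergic neuroblastoma markers 7 were tested. PHOX2A (log2 0.76), GATA3 (0.35) and ISL1 (0.22) were higher, MYCN (-0.43) and CHGA (-1.46) were lower, and HAND2 and DBH did not pass. TH was at the lowest value. The summed linear signal of the tested markers, in which the bright MYCN weighs most, was 46635 to 50722 in teriflunomide cells and 56400 to 57973 in DMSO cells. Of 11 measured blood, endothelial and epithelial markers, 10 were near the lowest value and 0 of the 2 tested passed in limma (summed signal 25.9 to 30.7 in teriflunomide cells and 29.7 to 32.6 in DMSO cells). Of 6 measured fibroblast and Schwann cell markers, COL1A1 (log2 0.94) and LUM (0.61) were higher and COL3A1 did not pass (0.37, adjusted p = 0.0701 in limma). DCN, SOX10 and S100B were at the lowest value. The summed signal of the tested markers of this list was 9240 to 9746 in teriflunomide cells and 5850 to 6155 in DMSO cells. The part of these differences in the synthetase results was not tested.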

How the data were processed

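RNA of 6 IMR32 samples was hybridised to Affymetrix arrays, 3 per group. The deposited values are log2 intensities per probe set, which the authors computed in GCRMA, per the submitters' processing notes. That method models background from the probes' sequences, normalizes the arrays together and summarises probes; its version was not given in the sources used here. Differences between dim probe sets therefore depend on the background model. Arrays give no read depth, and 3 per group limits the precision.

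Probe sets were named from the platform annotation: of 54675, 41097 had a single symbol and only these stood for genes. A probe set was tested if 3 or more of the 6 arrays had it no lower than the array median (27290 passed), and the brightest on average represented its gene, giving 11998 genes. Groups were compared with limma 3.58.1 (R 4.3.3; lmFit and eBayes, no covariates, two-sided), with Benjamini-Hochberg adjustment over all genes and a threshold of 0.05. All 32 tested members are named. Values on every array are given for the 8 cytosolic or dual and 6 mitochondrial members with the largest called changes, for GARS1 and KARS1, and for called members that ran against their compartment; AARS2, NARS2 and genes of the further lists were added after their values were seen. The members, pairs and lists were chosen with earlier results of these data known, so their counts are descriptions. Pairs were compared by exact permutation over arrays. Promoters and starts came from RefSeq tables of GRCh38.p14, and Python 3.11.15 did the searches. The arrays' own genome build is not stated. The fit was run on simulated data with 200 changed genes, far fewer than were called in the real data, so its rates need not hold here. It called 58% of changes of log2 0.5, 82% of those of 1, 100% of those of 2 and 90% of those of -1. Of unchanged genes it called 0.0932%. A comparison of protein sequences within pairs was planned and not run, as no protein sequences were used here. Alternatives were other filters, scalings, probe set choices, variance models, a floor at log2 5, the replicate number as a block, and leaving out each array.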

Additional observations from a re-analysis of the deposited data

Results flagged for a closer look

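Probe sets annotated with 2 gene symbols, 1 of them a synthetase of the set, were outside the gene tests and carry signal. Of 5 such probe sets, 4 were higher in teriflunomide cells than in DMSO cells in limma, and their gene is not named here because the annotation does not settle it. The log2 fold change was 1.37 for 201475_x_at (SE 0.051, adjusted p = 6.68e-05 over probe sets), 1.11 for 213671_s_at (SE 0.055, adjusted p = 0.000120), 1.59 for the dim 213672_at (SE 0.37, adjusted p = 0.0186) and 0.30 for 217846_at (SE 0.041, adjusted p = 0.00256). For 221189_s_at it was -0.11 and did not pass (adjusted p = 0.0622).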

How the results depend on the processing

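The counts of 11 cytosolic members higher and 10 mitochondrial members lower stayed within 1.5 times under every alternative run. The number of cytosolic members lower was 3 in place of 5 under the filter at the array's 75th percentile, centring on array medians, quantile normalization, centring on poly-A spikes, averaging of probe sets per gene and the replicate block, and 3 to 3 when each array was left out in turn. The calls lost were those of RARS1 and VARS1, and VARS1 turned to 0.12 with the mean of its probe sets (adjusted p = 0.350). The number of mitochondrial members higher was 2 in place of 1, AARS2 being added, under that filter, centring on array medians, the mean of probe sets, trended and robust eBayes and the replicate block. The mitochondrial median of -0.37 became -0.46 under the filter at the 75th percentile, -0.46 with poly-A spikes and -0.29 with the mean of probe sets. The filter at the 75th percentile left MARS2, PARS2 and SARS2 untested as too dim, so its median is over fewer members. The cytosolic median of 0.61 became 0.63 with quantile normalization and 0.53 with poly-A spikes. Causes were not tested.

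All 32 member calls were the same with no filter, array weights and the floor. QRSL1 turned to -0.0045 with the mean of its probe sets and to -0.014 with plain suffixes preferred. Among pairs, FARSB with FARS2 was at 0.12 with the mean of probe sets and then overlapped. The array numbers did not pair the samples: same-numbered deviations correlated at 0.044, 0.099 and -0.090, 3 of 6 arrays correlated best with their own number, and the block called 3359 genes higher and 3282 lower. Signal near the lowest value limits what dim probe sets can show.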
